A study of Mus musculus with 12 samples.

Results

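The genes described here encode the nuclear subunits of the respiratory chain and of the ATP synthase, measured in livers of mice that had received an adenovirus. Members were taken by symbol from the array annotation: the Nduf genes of complex I with a letter A, B, C, S or V and a number, Sdha to Sdhd of complex II, the Uqcr genes and Cyc1 of complex III, the Cox genes numbered 4 to 8 of complex IV, and the Atp5 genes of complex V. This gave 79 of the 22180 genes tested, with 33 in complex I, 4 in complex II, 8 in complex III, 17 in complex IV and 17 in complex V. The 79 genes had 88 probe sets that listed 1 gene only, and the 9 genes with more than 1 such probe set were represented by the brightest on average. Another 2 pseudogene symbols were left out, and 10 probe sets that listed a symbol of this kind together with another gene were not used for the counts. Ndufb2, Ndufb4, Ndufs6, Uqcr10 and Cox6c had only such shared probe sets, so they are not among the 79 genes.

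Male C57BL6/J mice of 8 to 10 weeks were injected through the tail vein with an Ad5 adenovirus, and their livers were taken 4 days later, at 3 pm and after a fast of 6 h. The virus carried GFP in 6 samples (replicates 1 to 6) and human ApoF (hApoF), a secreted apolipoprotein, in the other 6 (replicates 7 to 12). Both groups therefore carried an adenovirus, and uninjected livers were not analysed here. Each sample was hybridised to 1 array, and the labels do not tie each array to an animal of its own. The p-values therefore rest on the spread between arrays, which may be technical.

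The respiratory chain passes electrons from NADH (complex I) and succinate (complex II) through coenzyme Q, complex III and cytochrome c to oxygen at complex IV, and pumps protons across the inner mitochondrial membrane. The ATP synthase, complex V, lets the protons return and makes ATP. Most subunits are encoded in the nucleus and imported, while a smaller number, in complexes I, III, IV and V, are encoded by mitochondrial DNA. Hepatocytes are among the cells rich in mitochondria. In textbook accounts many nuclear subunit genes are bound near their start by the factors NRF1, GABP (NRF-2) and YY1, and by estrogen-related receptors (ERR).

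The value distributions of the arrays differed slightly between the groups. Upper quartiles were 6.67 to 6.81 on the log2 scale in the GFP group and 6.67 to 6.73 in the hApoF group, and lower quartiles 3.66 to 3.80 and 3.74 to 3.80. For the upper quartile only GFP 4 (6.673) lay within the hApoF range. The other GFP arrays, at 6.734 or more, lay above every hApoF array, at 6.726 or less. Hepatocyte markers lay at a mean log2 level of 12.77 to 12.88 in the GFP arrays and 12.93 to 12.98 in the hApoF arrays, bright in every array of this liver RNA. The values are logarithms after normalization and have no true zero, so a gene that is not expressed still has a low positive value.

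Few subunit genes were called, and most of their differences were small and below 0. Of the 79 subunit genes 3 passed the test as lower in hApoF livers, Cox6b2, Ndufa8 and Ndufs7, which is 3.80% of the members, against 4.8% of all genes tested in that direction (limma, Benjamini-Hochberg adjusted p under 0.05 over 22180 genes). No subunit gene passed as higher, against 2.11% of all genes, so the share of called subunit genes was near or under the background in each direction. At an unadjusted p under 0.05 there were 14 lower and 0 higher subunit genes, while 11.1% of all genes were lower and 10.1% higher at that level. The log2 difference, hApoF minus GFP, was below 0 for 59 of 79 subunit genes (74.7%) and for 42.3% of all genes, with a median of -0.08 for the subunits and 0.03 for all genes. The sizes were small: 66 of the 79 differences lay within 0.2 of 0 and 40 within 0.1, a total of 13 lay more than 0.2 below 0, and 0 more than 0.2 above it. In whole liver, fewer cells of a type and less RNA per cell cannot be told apart.

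**Figure D1:**
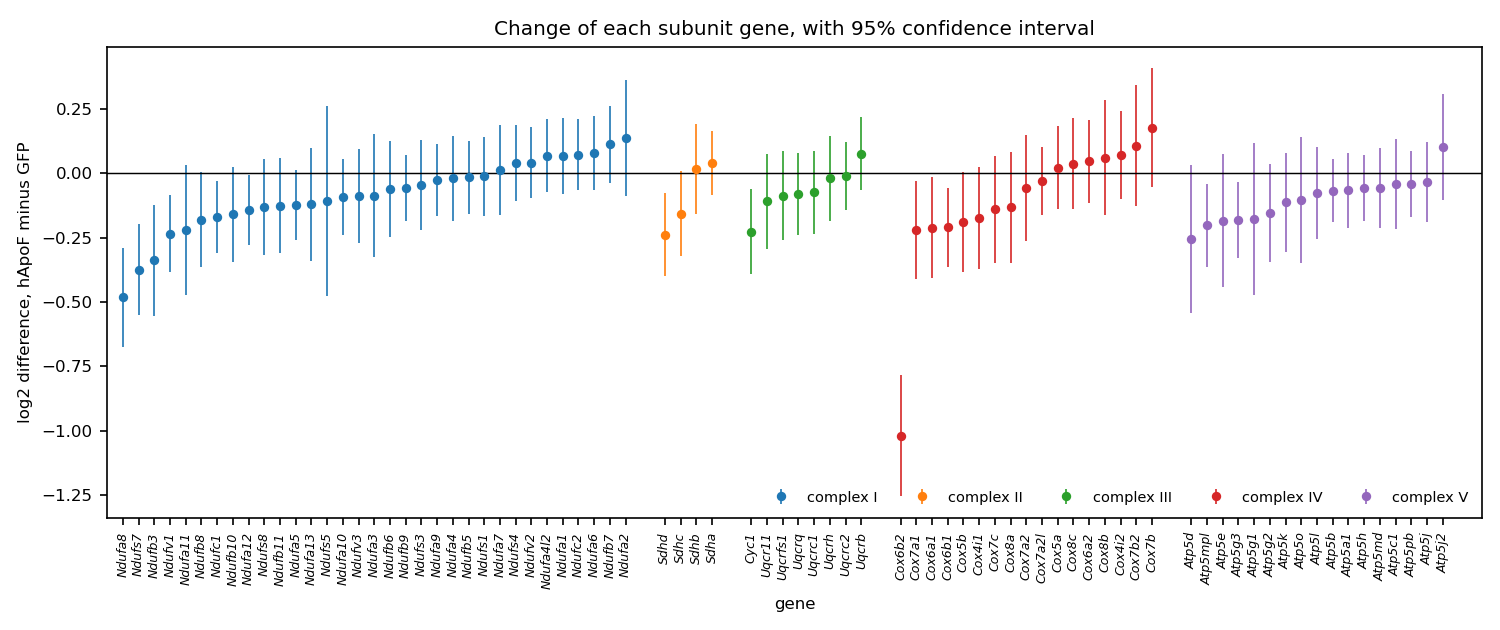
The log2 difference between hApoF and GFP livers (vertical axis) for each of the 79 subunit genes, ordered within complexes I to V along the horizontal axis, with bars for the 95% confidence interval of the fit. Most points lie slightly below 0, and Cox6b2 stands alone at -1.02.

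The promoters of the called genes and of Cox6b1, the widely expressed partner of Cox6b2, are shown first, because the results on the called genes refer back to them. Each is the stretch of 250 bases that ends just before the transcription start, from RefSeq on the build GRCm38.p6, written 5′ to 3′ on the gene's strand. The letters searched for on both strands were CGCANGCG for NRF1, CCGGAAG for GABP, AAGATGGCG for YY1 and CAAGGTCA for ERR, and capitals mark a match. The Ndufa8 stretch is chr2:36049339-36049588 on the minus strand, the Ndufs7 stretch chr10:80249199-80249448 on the plus strand, the Cox6b2 stretch chr7:4753095-4753344 on the minus strand and the Cox6b1 stretch chr7:30626115-30626364 on the minus strand.
Ndufa8: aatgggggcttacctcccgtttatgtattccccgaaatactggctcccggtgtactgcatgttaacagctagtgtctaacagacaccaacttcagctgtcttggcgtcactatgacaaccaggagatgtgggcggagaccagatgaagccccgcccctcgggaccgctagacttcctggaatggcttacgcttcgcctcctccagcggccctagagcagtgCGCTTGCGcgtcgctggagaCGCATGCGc
Ndufs7: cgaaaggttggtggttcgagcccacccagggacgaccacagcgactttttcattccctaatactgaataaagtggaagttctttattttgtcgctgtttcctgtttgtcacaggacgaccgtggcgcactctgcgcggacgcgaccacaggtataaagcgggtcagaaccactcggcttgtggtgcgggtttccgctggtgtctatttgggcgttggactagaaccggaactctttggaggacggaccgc
Cox6b2: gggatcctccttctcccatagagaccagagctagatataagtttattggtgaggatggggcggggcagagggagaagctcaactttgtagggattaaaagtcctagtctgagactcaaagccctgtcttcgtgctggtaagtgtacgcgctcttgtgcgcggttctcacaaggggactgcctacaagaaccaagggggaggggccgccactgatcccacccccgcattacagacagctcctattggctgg
Cox6b1: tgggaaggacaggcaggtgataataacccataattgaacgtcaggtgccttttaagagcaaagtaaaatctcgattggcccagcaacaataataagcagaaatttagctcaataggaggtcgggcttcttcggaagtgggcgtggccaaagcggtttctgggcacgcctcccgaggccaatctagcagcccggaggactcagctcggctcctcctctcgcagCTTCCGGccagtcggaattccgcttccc

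In Ndufa8 the NRF1 letters began 29 and 9 bases before the start, and the match at 9 bases reads the same on both strands. Ndufs7 held the YY1 letters 25 bases after its start, outside the stretch printed, and Cox6b1 held the GABP letters 28 bases before its start. For Cox6b2 none of these letters were found in the window of 300 bases, which says only that the letters are not there. Across the family 64 of the 79 genes had a promoter in the RefSeq table, with 69 promoters in all. In windows of 300 bases, from 250 before to 50 after the start, the NRF1 letters were in 37.7% of the subunit promoters and in 8.21% of all 32851 promoters. The GABP letters were in 24.6% against 8.86%, the YY1 letters in 8.70% against 1.40% and the ERR letters in 5.80% against 1.56%. The matches are descriptions of letters and not of binding. The start that the table gives for Ndufs7 lies inside the annotated span of the gene. The 23 genes with NRF1 letters had a median log2 difference of -0.11 with 1 gene called, the 41 genes with a promoter but without those letters -0.07 with 2 called, and the 15 genes with no promoter in the table -0.01 with 0 called.

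In complex I, which takes electrons from NADH, 2 of 33 genes fell, 0 rose and 31 did not pass the test, with a median log2 difference of -0.09 and 24 differences below 0. Ndufa8 encodes an accessory subunit on the intermembrane space side. Its log2 level was 9.31 in the lowest GFP array, 9.41 at the median and 9.55 in the highest, and in the hApoF arrays it was 8.65, 8.93 and 9.26. All 6 hApoF arrays lay below the lowest GFP array, with hApoF 9 the nearest to it and hApoF 12 the farthest. Ndufa8 fell by 0.48 (SE 0.09, limma adjusted p = 0.0037), a 1.40-fold difference. The second probe set of Ndufa8 differed by -0.42 on the log2 scale (SE 0.12, limma adjusted p = 0.064 with all probe sets in the fit). For its head-to-head neighbour Morn5 the difference was 0.24 (SE 0.09, limma adjusted p = 0.155).

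Ndufs7 encodes a core subunit that holds the last iron-sulfur cluster before coenzyme Q. Its log2 level was 10.15, 10.35 and 10.40 in the lowest, median and highest GFP array and 9.80, 9.92 and 10.24 in the hApoF arrays. The groups overlapped, since hApoF 8 lay above GFP 1, while the other GFP arrays lay above all hApoF arrays. Ndufs7 fell by 0.38 (SE 0.08, limma adjusted p = 0.012), a 1.30-fold difference. This call was lost when hApoF 7 and hApoF 12 were left out together (log2 difference -0.30, limma adjusted p = 0.067). The annotated span of Ndufs7 overlaps a tRNA gene.

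The other 5 catalytic core genes of complex I that were measured (Ndufs1, Ndufs3, Ndufs8, Ndufv1, Ndufv2) did not pass. Ndufv1, named after its values were seen, encodes the subunit that binds NADH and its flavin cofactor. Its log2 level was 9.24, 9.32 and 9.40 in the lowest, median and highest GFP array and 8.88, 9.13 and 9.21 in the hApoF arrays, so the groups did not overlap. With Cox6b2 and Ndufa8 this made 3 members without overlap in the lower direction, against 3.49% of all genes, and the log2 difference of Ndufv1 was -0.23 (SE 0.07, limma adjusted p = 0.057). Over the 6 core genes the median difference was -0.09 with 1 called, and over the 27 accessory genes it was also -0.09 with 1 called. The 27 are all other Nduf members, and by symbol they include Ndufa4 and Ndufa4l2, which are described below. The largest positive difference in complex I was 0.14 (SE 0.11, limma adjusted p = 0.494), for the accessory subunit Ndufa2, with log2 levels of 7.57 to 7.88 in GFP arrays and 7.47 to 8.20 in hApoF arrays. Ndufab1, the mitochondrial acyl carrier protein and a complex I subunit outside the name rule, had a difference of -0.18 (SE 0.08, limma adjusted p = 0.230).

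Ndufa4 carries a complex I name but is now counted as a subunit of complex IV, and it was kept here by its symbol. Its log2 level was 10.95 to 11.08 in GFP arrays and 10.70 to 11.15 in hApoF arrays, with a difference of -0.02 (95% confidence interval -0.19 to 0.15, limma adjusted p = 0.912). Ndufa4l2, a paralog known to be induced by hypoxia, had a difference of 0.07 (95% confidence interval -0.07 to 0.21, limma adjusted p = 0.612). For these genes a change beyond those intervals was not seen at this spread.

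Complex II passes electrons from succinate to coenzyme Q and belongs also to the citrate cycle. None of its 4 genes passed the test, and 2 of the 4 differences were below 0, those of the membrane anchors. Sdhd, the smaller anchor, had log2 levels of 9.95, 10.13 and 10.28 in the lowest, median and highest GFP array and 9.73, 9.90 and 10.03 in the hApoF arrays. The groups overlapped, and the difference was -0.24 (SE 0.08, limma adjusted p = 0.072). Sdhc, the larger anchor, had levels of 9.001 to 9.319 in GFP arrays and 8.81 to 9.18 in hApoF arrays, with a difference of -0.16 (SE 0.08, limma adjusted p = 0.264). Sdha, the flavoprotein that oxidises succinate, had a difference of 0.04 (95% confidence interval -0.08 to 0.17, limma adjusted p = 0.734), and Sdhb, the iron-sulfur subunit, was also within 0.1 of 0.

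Complex III, which hands electrons from coenzyme Q to cytochrome c, had no called gene among 8, with 7 differences below 0 and a median of -0.08. Cyc1, cytochrome c1, had log2 levels of 8.19, 8.26 and 8.35 in the lowest, median and highest GFP array and 7.79, 8.11 and 8.20 in the hApoF arrays. The highest hApoF array lay just above the lowest GFP array. The log2 difference of Cyc1 was -0.23 (SE 0.08, limma adjusted p = 0.095). Uqcr11, a small accessory subunit, had a difference of -0.11 (SE 0.09, limma adjusted p = 0.513), and Uqcrb, which lies near a coenzyme Q site, had 0.08 (SE 0.07, limma adjusted p = 0.555). A probe set shared by Uqcr10 and a predicted gene had a difference of -0.22 (SE 0.08, limma adjusted p = 0.146 with all probe sets in the fit) and was not counted. It was the lowest of the 10 shared probe sets, whose differences ran from -0.22 to 0.08.

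Complex IV reduces oxygen, and several of its nuclear subunits exist as a widely expressed form and a form typical of muscle, lung or testis. Cox6b2 was the only 1 of the 17 genes to pass, and it had the largest difference of all 79. It encodes the testis-type isoform of a small subunit on the intermembrane space side. Its log2 level was 5.40 in the lowest GFP array, 5.95 at the median and 6.10 in the highest, and in the hApoF arrays it was 4.64, 4.80 and 5.01. All hApoF arrays lay below all GFP arrays, and GFP 4 was the GFP array nearest to them. The single probe set of Cox6b2 was dim, with a mean of 5.85 in GFP and 4.83 in hApoF arrays. The medians of the hApoF arrays over all probe sets were 4.98 to 5.03. Its mean over 12 arrays was 5.34, and those of the 9 muscle markers in these livers ran from 2.89 (Actn2) to 6.08 (Tnnt2). How much of this signal was background was not tested. Cox6b2 fell by 1.02 (SE 0.11, 95% confidence interval -1.25 to -0.78, limma adjusted p = 3.9e-05), a 2.03-fold difference. Part of the Cox6b2 promoter printed above lies inside the annotated span of the neighbouring gene Fam71e2. The difference of Fam71e2 was -0.03 on the log2 scale (SE 0.09, limma adjusted p = 0.889).

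**Figure D2:**
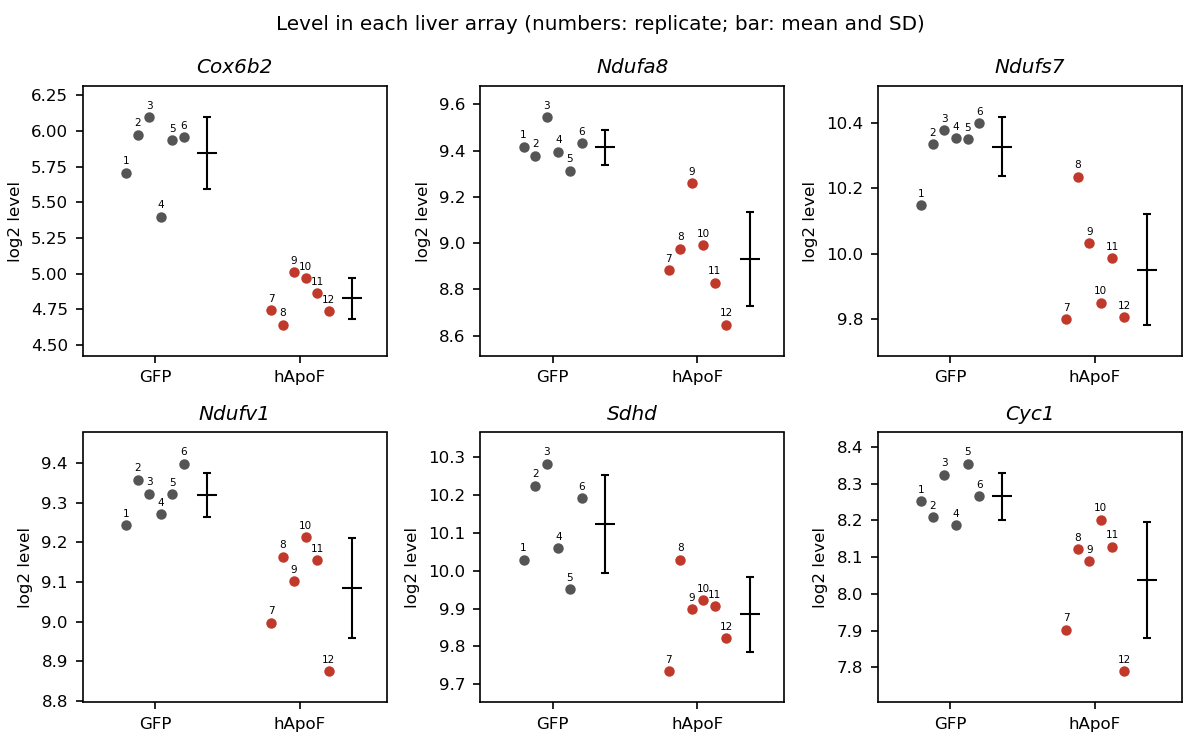
Log2 level (vertical axis) in each of the 6 GFP and 6 hApoF arrays for Cox6b2, Ndufa8, Ndufs7, Ndufv1, Sdhd and Cyc1, 1 panel per gene, with the replicate number beside each point and a bar for the mean and SD. In Cox6b2 and Ndufa8 the groups do not overlap, and in Ndufs7 the array hApoF 8 lies above GFP 1.

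Cox6b1, the widely expressed partner of Cox6b2, had log2 levels of 9.01, 9.10 and 9.17 in the lowest, median and highest GFP array and 8.65, 8.91 and 9.05 in the hApoF arrays. Only hApoF 7 lay above the lowest GFP array, GFP 3, and the log2 difference was -0.21 (SE 0.07, limma adjusted p = 0.095). Levels of the 2 isoforms cannot be set against each other, since they come from different probes. Cox6a1, the form of liver and most tissues, had levels of 11.85, 11.91 and 12.15 in the lowest, median and highest GFP array and 11.51, 11.75 and 11.95 in the hApoF arrays, with a difference of -0.21 (SE 0.09, limma adjusted p = 0.204). Its muscle partner Cox6a2 had a difference of 0.05 (SE 0.08, limma adjusted p = 0.771).

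Cox7a1, the muscle form, had log2 levels of 5.44, 5.50 and 5.63 in the lowest, median and highest GFP array and 5.06, 5.24 and 5.62 in the hApoF arrays. The groups overlapped through hApoF 9, and the difference was -0.22 (SE 0.09, limma adjusted p = 0.164), which passed without hApoF 9 (-0.29, limma adjusted p = 0.043). Its liver partner Cox7a2 had a difference of -0.06 (95% confidence interval -0.26 to 0.15, limma adjusted p = 0.783). Cox7a2l, a factor in the joining of complexes III and IV that is not a subunit of the single enzyme, had a difference of -0.03 (SE 0.06, limma adjusted p = 0.829).

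The remaining isoform pairs did not pass. Cox4i1, the widely expressed form of the largest nuclear subunit, had a difference of -0.17 (SE 0.09, limma adjusted p = 0.300), and Cox4i2, the lung and hypoxia form, had 0.07 (SE 0.08, limma adjusted p = 0.658). Cox8a had a difference of -0.13 (SE 0.10, limma adjusted p = 0.493), the muscle form Cox8b 0.06 (SE 0.10, limma adjusted p = 0.791) and the testis form Cox8c 0.04 (SE 0.08, limma adjusted p = 0.836). Cox7b had the highest difference of the 79 genes at 0.18 (SE 0.11, limma adjusted p = 0.373), with log2 levels of 7.73, 8.01 and 8.33 in the lowest, median and highest GFP array and 7.82, 8.29 and 8.33 in the hApoF arrays. The ranges of the groups were nearly the same, and the second probe set of Cox7b gave 0.53 (SE 0.24, limma adjusted p = 0.269 with all probe sets in the fit). Cox7b2, a testis form, had low log2 values, at 1.86 to 2.21 in GFP arrays and 1.78 to 2.48 in hApoF arrays, with a difference of 0.11 (SE 0.11, limma adjusted p = 0.626). The 9 widely expressed subunits of complex IV had a median difference of -0.14 with 0 called, and the 7 tissue forms 0.05 with 1 called. The 9 do not include Cox6c. Its shared probe sets gave differences of 0.07 and 0.08 (limma adjusted p = 0.639 and 0.553 with all probe sets in the fit).

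In complex V none of the 17 genes passed, but 16 of the 17 differences were below 0, with a median of -0.08. The 3 genes of the c subunit encode the same mature protein, the ring that turns as protons pass. Atp5g3 had log2 levels of 8.78, 8.89 and 8.92 in the lowest, median and highest GFP array and 8.49, 8.68 and 8.88 in the hApoF arrays, with a difference of -0.18 (SE 0.07, limma adjusted p = 0.140). Atp5g1 had a difference of -0.18 (SE 0.14, limma adjusted p = 0.505) and Atp5g2 -0.16 (SE 0.09, limma adjusted p = 0.344). The groups overlapped in each of the 3 genes.

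Atp5mpl, a small membrane subunit, had log2 levels of 8.98, 9.02 and 9.25 in the lowest, median and highest GFP array and 8.72, 8.84 and 9.06 in the hApoF arrays, with a difference of -0.20 (SE 0.08, limma adjusted p = 0.132). Atp5d, a subunit of the central stalk, had the lowest difference of complex V at -0.25 (SE 0.13, limma adjusted p = 0.300), with levels of 8.73 to 9.17 in GFP arrays and 8.19 to 9.13 in hApoF arrays. The wide hApoF range of Atp5d reached down to hApoF 12. Atp5j2, a membrane subunit, had the only positive difference, 0.10 (SE 0.10, limma adjusted p = 0.596). By position in the enzyme, the median difference was -0.07 over the 5 genes of the F1 head, -0.18 over the 3 c subunit genes, -0.05 over 4 genes of the peripheral stalk and -0.08 over 5 other membrane subunits.

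The pattern across arrays was uneven. Averaged over all 79 genes, the log2 level was 8.14 ± 0.0088 (SD, n = 6) in the GFP arrays, with a range of 8.13 to 8.16, and 8.05 ± 0.077 (SD, n = 6) in the hApoF arrays, with a range of 7.93 to 8.12. All 6 hApoF arrays lay below the lowest GFP array. Between log2 levels of 5.27 and 10.7, the subunit mean was also set against the mean of the other genes there. The subunit mean minus the other mean was 1.06 to 1.14 in GFP arrays. It was 1.08 to 1.09 in hApoF 8, 9 and 10, 1.04 in hApoF 11, 0.96 in hApoF 7 and 0.88 in hApoF 12, so the groups overlapped. The mean of those other genes was 7.10 to 7.20 in GFP arrays and 7.09 to 7.13 in hApoF arrays. Within the hApoF group, hApoF 12 (7.93) and hApoF 7 (7.98) were the lowest, while the other 4 lay between 8.09 and 8.12. The array hApoF 12 also had the lowest values over all probe sets, though the next arrays were near. Its highest correlation with another array (across probe sets, which are not independent) was 0.9884, against 0.9894 (hApoF 8) to 0.9933 for the others. Its lowest correlation, 0.982, was the same as that of GFP 3. The array weight from limma was 0.543, against 0.633 (GFP 4) to 1.66. With these weights in the fit the median log2 difference of the 79 genes was -0.07 with 3 genes called lower, and without hApoF 12 the median was -0.05. Of the 79 genes, 32 had their lowest value of all 12 arrays in hApoF 12 and 18 in hApoF 7. In hApoF 7 83.5% and in hApoF 12 77.2% of the subunit genes were below their GFP mean, against 49.4% to 63.3% in the other hApoF arrays. For other genes between levels of 5.27 and 10.7, a range that leaves out some of the 79, those shares were 58.0% and 53.8% in hApoF 7 and hApoF 12.

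**Figure D3:**
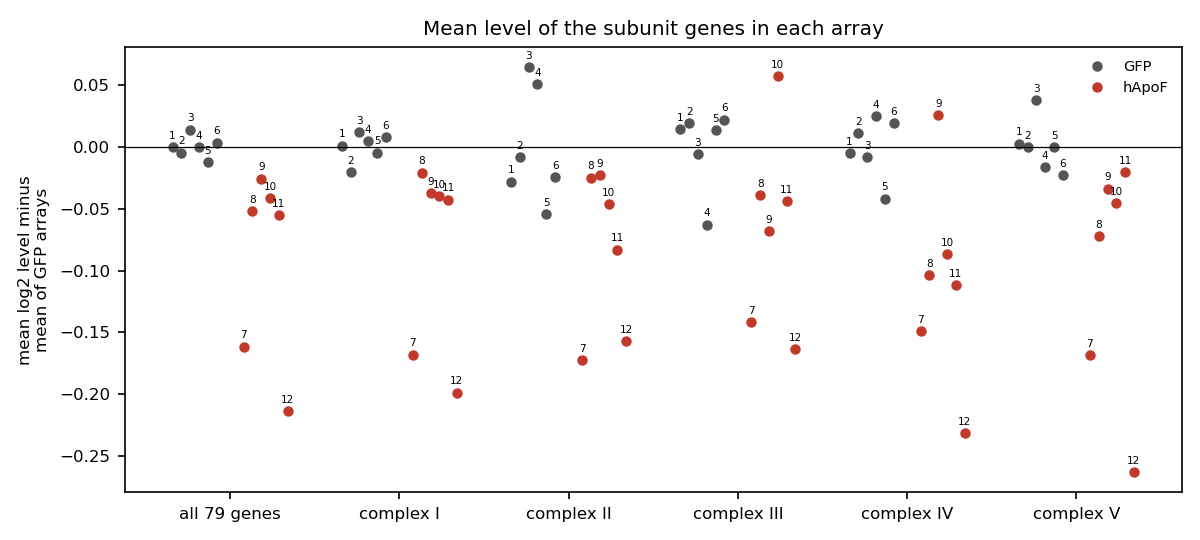
Mean log2 level of the genes of each complex in each array, minus the mean of the GFP arrays (vertical axis), for all 79 genes and for complexes I to V (horizontal axis), with 1 point per array. The GFP arrays sit close together, and hApoF 7 and hApoF 12 are the lowest points in all of these groups.

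By complex, the mean level of complex I was below the lowest GFP array in 6 of 6 hApoF arrays, that of complexes IV and V in 5 each, and that of complexes II and III in 3 each. hApoF 12 was the lowest array for complexes I, III, IV and V, and hApoF 7 for complex II. Without hApoF 7 and hApoF 12, an omission chosen after seeing the data, the median log2 difference of the 79 genes was -0.03, 50 differences were below 0, and Cox6b2 and Ndufa8 were the 2 called genes. The medians of the complexes were then -0.01 for I, -0.05 for II, -0.0050 for III, -0.02 for IV and -0.04 for V. The median of complex I also moved by over 1.5 times without GFP 1 alone (-0.06), without hApoF 7 alone (-0.05) or without hApoF 12 alone (-0.06). That of complex III did so without hApoF 12 alone (-0.04), and that of complex IV without hApoF 7 (-0.03), hApoF 8 (-0.10), hApoF 10 (-0.10) or hApoF 12 (-0.02).

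Genes of the same mean level were the next comparison. Between 5.27 and 10.7 on the log2 scale, the range from the 10th to the 90th percentile of the subunit genes, there were 63 subunit genes and 10798 other genes. Of the subunit genes there 3 (4.76%) were called lower and 0 higher, and of the other genes 908 (8.41%) lower and 328 (3.04%) higher. The median difference was -0.09 for the subunit genes and -0.02 for the other genes, the latter turning positive after cyclic loess (0.01) and after a further quantile normalization (0.02). Differences below 0 made up 81.0% of the subunit genes and 54.1% of the other genes. In steps of 1 log2 unit, the subunit median was below that of the other genes in 7 of the 7 steps with at least 6 subunit genes, from 5 to 12. Subunit medians there lay between -0.18 and -0.06 and those of the other genes between -0.04 and 0.06. No test of the difference between subunit genes and other genes was made.

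**Figure D4:**
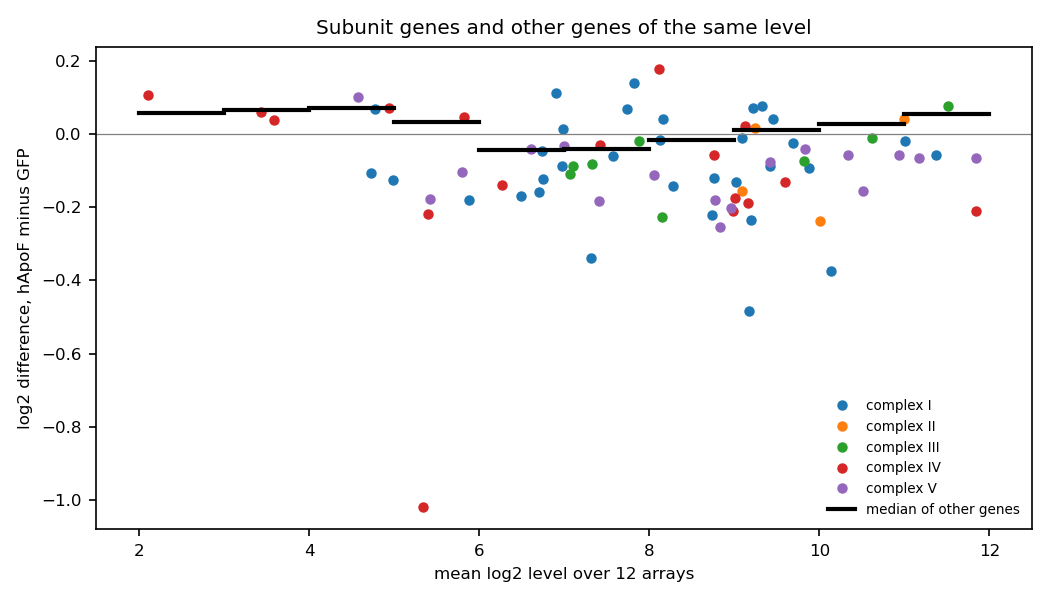
Log2 difference between hApoF and GFP livers (vertical axis) against the mean log2 level over 12 arrays (horizontal axis), with 1 point per subunit gene, coloured by complex, and a bar for the median of the other genes in each step of 1 log2 unit. Most subunit genes from 5 to 12 lie below the bar of their step.

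The subunits encoded by mitochondrial DNA were measured for 10 of 13 genes, and 0 passed in either direction, with a median log2 difference of 0.00. Of these, 9 lay above a level of 12, with differences from -0.01 to 0.01 and 95% confidence intervals that reached from -0.15 to 0.14. Their mean levels of 12.8 to 13.5 were close to the highest values of the arrays (13.4 to 13.6), and whether a difference in RNA was compressed at that level was not tested. ND6, the only one under that level and the subunit encoded on the other strand, had log2 levels of 10.46, 10.57 and 10.77 in the lowest, median and highest GFP array and 10.58, 10.74 and 10.81 in the hApoF arrays. Its difference was 0.10 (SE 0.07, limma adjusted p = 0.459).

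Of the assembly factors, 45 of the 48 listed were measured, and 2 fell and 0 rose, with a median difference of -0.04. The share called lower was 4.44%, against 4.8% of all genes tested. Tmem186, which helps to assemble complex I, had log2 levels of 7.03, 7.20 and 7.22 in the lowest, median and highest GFP array and 6.60, 6.69 and 6.87 in the hApoF arrays. The groups did not overlap, and Tmem186 fell by 0.45 (SE 0.07, limma adjusted p = 6.7e-04). Cox19, which takes part in copper delivery to complex IV, fell by 0.34 (SE 0.07, limma adjusted p = 0.011).

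Of the carriers and coenzyme Q genes, 18 of 19 were measured, with 2 lower, 1 higher and a median of -0.02. The shares were 11.1% lower and 5.56% higher, against 4.8% and 2.11% of all genes. Coq10b, a coenzyme Q binding protein, had log2 levels of 8.81, 8.88 and 9.20 in the lowest, median and highest GFP array and 9.22, 9.61 and 9.98 in the hApoF arrays. It rose by 0.69 (SE 0.12, limma adjusted p = 0.0017), a 1.61-fold difference, with no overlap between groups. Coq7, a hydroxylase of coenzyme Q synthesis, fell by 0.30 (SE 0.07, limma adjusted p = 0.015), and Gpd2, the mitochondrial glycerol-3-phosphate dehydrogenase, by 0.40 (SE 0.11, limma adjusted p = 0.041). The call of Gpd2 was lost without any 1 of the 6 GFP arrays, with adjusted p between 0.052 and 0.095, and without hApoF 7, hApoF 10 or hApoF 11. It was also lost with all probe sets in the fit (limma adjusted p = 0.062) and after cyclic loess (0.060). The same held after a further quantile normalization (0.054) and without hApoF 7 and hApoF 12 together (0.060).

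Of the genes of the citrate cycle and pyruvate dehydrogenase, 21 of 22 were measured, and 5 fell and 0 rose, with a median of -0.08. The share called lower was 23.8%, against 4.8% of all genes, in a list chosen with earlier results known. At an unadjusted p under 0.05 (limma) 6 genes were lower and 4 higher, against 11.1% and 10.1% of all genes. Idh3g, a subunit of the NAD-dependent isocitrate dehydrogenase, had log2 levels of 10.02, 10.08 and 10.21 in the lowest, median and highest GFP array and 9.52, 9.64 and 9.73 in the hApoF arrays. Idh3g fell by 0.46 (SE 0.07, limma adjusted p = 4.3e-04), Idh2, the NADP-dependent mitochondrial enzyme, by 0.48 (SE 0.10, limma adjusted p = 0.0062) and Cs, citrate synthase, by 0.32 (SE 0.08, limma adjusted p = 0.021). In each of these genes all hApoF arrays lay below all GFP arrays. The count of lower genes was 3 without GFP 2, 2 without GFP 3, and 2 lower with 1 higher without hApoF 7 and hApoF 12 together. The call of Cs was lost without GFP 3 (limma adjusted p = 0.056) and without hApoF 7 and hApoF 12 together (0.082). The count of higher genes was up to 2 when 1 array was left out, reached without GFP 4 and without hApoF 7.

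The regulators of mitochondrial biogenesis were measured for 20 of 20 genes, with 1 lower, 0 higher and a median of -0.08. The share called lower was 5%, against 4.8% of all genes. Tfam, which packs and transcribes mitochondrial DNA, fell by 0.33 (SE 0.09, limma adjusted p = 0.034), with log2 levels of 6.83, 7.30 and 7.33 in the lowest, median and highest GFP array and 6.79, 6.87 and 6.98 in the hApoF arrays. GFP 4 lay within the hApoF range and the other GFP arrays above it. The call was lost without any of GFP 1, 2, 3, 5 or 6 or hApoF 7, 8 or 9, with adjusted p between 0.057 and 0.080. It was also lost with all probe sets in the fit (limma adjusted p = 0.052) and after a further quantile normalization (0.054). Without hApoF 7 and hApoF 12 together the adjusted p of Tfam was 0.10. Of the genes for nucleotide exchange, uncoupling and inhibition of the ATP synthase, 9 of 12 were measured, with 1 lower, 0 higher and a median of -0.06. The 1 gene makes 11.1% of this short list, against 4.8% of all genes. Atpif1, the protein that inhibits the ATP synthase when it runs in reverse, had log2 levels of 7.87, 8.22 and 8.44 in the lowest, median and highest GFP array and 7.29, 7.51 and 7.54 in the hApoF arrays. The groups did not overlap, and Atpif1 fell by 0.77 (SE 0.09, limma adjusted p = 9.8e-05), a 1.70-fold difference.

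Markers of other cells moved with the groups in part. Of 8 macrophage and Kupffer cell markers 2 rose, Clec4f and Vsig4, and the mean log2 level of the list was 6.40 to 7.59 in GFP arrays and 6.97 to 7.96 in hApoF arrays. Of 7 endothelial markers 1 rose (Kdr; list mean 8.08 to 8.58 and 8.39 to 8.75), of 6 stellate cell markers 2 rose (Dcn and Pdgfrb; 7.35 to 7.69 and 7.58 to 7.90), and of 5 neutrophil markers 1 rose (S100a9; 3.78 to 4.13 and 3.90 to 4.47). In that order the shares called higher were 25%, 14.3%, 33.3% and 20% of these short lists, against 2.11% of all genes. No marker was called among 8 hepatocyte, 9 muscle, 4 brown fat, 4 bile duct, 5 lymphocyte and 1 erythroid genes, and none of the lists held a lower call. The median difference of the hepatocyte markers was 0.14. All 8 were higher in hApoF livers, 4 of them without overlap of the groups and 4 at an unadjusted p under 0.05 (limma). Their list means did not overlap, at 12.77 to 12.88 in GFP and 12.93 to 12.98 in hApoF arrays. Their levels ran from 12.0 (Apoa1) to 13.5 (Alb), and the highest values of the arrays were 13.4 to 13.6. In hApoF 7 and hApoF 12 the macrophage list stood at 7.32 and 7.96, against 6.97 to 7.88 in the other hApoF arrays, and the hepatocyte list at 12.96 in each, against 12.93 to 12.98. The part of cell makeup in the differences of the subunit genes was not tested.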

How the data were processed

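Liver RNA of 6 GFP and 6 hApoF samples was measured on a mouse gene array, 1 array per sample. The authors deposited log2 values per probe set, made with oligo and RMA (robust multi-array average) per the submitters' processing notes. Which versions, build and annotation they used is not given in the sources used here, and no parameters are named. Values were present for 35145 probe sets on 12 arrays, with 0 missing, and were used unaltered. RMA normalizes the arrays to a common distribution, so a change shared by most genes cannot be seen.

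Gene names came from the platform annotation, which can be old: 23521 listed 1 gene symbol, 1814 several and 9810 none. For each of the 22180 genes the single-gene probe set with the highest mean over 12 arrays stood, and 1082 genes had more than 1. All genes were fitted together in limma 3.58.1 (R 4.3.3, lmFit and eBayes, no covariates, no filter on dim genes), with Benjamini-Hochberg adjustment over all genes and a threshold of 0.05. Confidence intervals are 95% intervals of that fit. Tables, percentiles and figures were made with Python 3.11.15, pandas 2.3.3, scipy 1.17.1 and matplotlib 3.10.9. The fit was tested on simulated data of the same size. With 50 genes per size, 4% of those given a log2 change of 0.25 passed, 54% at 0.5 and 100% at 1 and at 2. Only these genes were changed there, while 1064 lower and 469 higher genes passed in the data. The p needed to pass was thus stricter in the simulation, and its shares do not carry over to these data. Differences as small as most of those of the subunit genes would seldom pass in that simulation. How often they would pass in these data was not tested.

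Groups were taken from the virus named in the labels. The labels give no batch or dose, and the number of arrays limits the precision.

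The members and the gene lists were chosen with earlier results of these data known, so no test over the members as a set was made. Named genes were, per complex, the members that passed (up to 6, by p), or the 2 of lowest p where none did, the extremes of change and level, the isoform pairs, and the c subunit genes. From each pathway list up to 3 passing genes, or the 1 with the lowest p, were named. Ndufv1, Ndufb3, Sdhb, Clec4f, Vsig4, Kdr, Dcn, Pdgfrb, S100a9 and the neighbouring genes were named after their values were seen, and the position groups within complexes and the promoter letters were also written then. The lists held mitochondrially encoded subunits, assembly factors, electron carriers and coenzyme Q synthesis, citrate cycle, regulators, nucleotide exchange and cell type markers. Promoters came from RefSeq tables of GRCm38.p6. Alternatives were other normalizations, variance settings, array weights, a filter on dim genes, other choices of probe set and the omission of arrays.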

Additional observations from a re-analysis of the deposited data

Results flagged for a closer look

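The values of 98 groups of 6 arrays were examined for 1 array standing apart, by the gap to its nearest neighbour over the whole range (Dixon's criterion at 95%), and chance flags about 1 in 20 groups. A total of 6 stood apart. In Ndufs7, GFP 1 had a log2 level of 10.15 and the other GFP arrays 10.34 to 10.40. In Sdha, GFP 4 had 11.02 and the others 10.96 to 10.97. In Cox7b, hApoF 8 had 7.82 and the other hApoF arrays 8.14 to 8.33. In Cox7a1, GFP 2 had 5.63 and the other GFP arrays 5.44 to 5.51. In Tfam, GFP 4 had 6.83 and the others 7.19 to 7.33. The mean level of complex III was 8.66 in GFP 4 and 8.71 to 8.74 in the other GFP arrays.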

How the results depend on the processing

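No paired analysis was possible because the groups share no replicate numbers (1 to 6 and 7 to 12). The count of subunit genes called lower, 3 as reported, was 8 when only genes brighter than the median gene were tested (Cox6b1, Cox6b2, Cyc1, Ndufa8, Ndufb3, Ndufs7, Ndufv1 and Sdhd), 7 with trend and robust settings, 5 after a further quantile normalization, and 3 to 4 when each array was left out in turn. No setting called a subunit gene higher, and no called gene changed direction. The median log2 difference of the 79 genes lay between -0.10 and -0.05 over the omissions of 1 array and between -0.09 and -0.03 over the other settings, and differences below 0 numbered 54 to 62 and 50 to 59. Per complex the omissions gave medians of -0.09 to -0.05 for I and for II, -0.10 to -0.04 for III, -0.10 to -0.02 for IV and -0.10 to -0.05 for V. Complex IV had -0.14 with brighter genes only, -0.03 with array weights and -0.04 after cyclic loess, and complex III had -0.04 after cyclic loess and -0.02 after the further quantile normalization. The omission of hApoF 7 and hApoF 12 together was the 1 alternative chosen after seeing the data.

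Over 940 combinations of 43 named genes and settings, 28 lost the call and 7 gained one, 0 turned sign with a call, and 16 turned sign without one (in Ndufa4, Cox8c, Cox7a2, Cox8b, Cox7a2l and Sdha, all close to 0). Cox6b2 kept its call in every setting run, with a log2 difference of -1.11 to -0.97 over the omissions of 1 array, and so did Ndufa8 (-0.55 to -0.43). Coq7, Gpd2 and Tfam lost their calls after the further quantile normalization (limma adjusted p = 0.051, 0.054 and 0.054). The citrate cycle list had up to 3 higher genes, with brighter genes only, with trend and robust settings, and without GFP 4 and hApoF 12 together. Of all genes, 748 to 1335 were lower and 254 to 653 higher over the omissions, against 1064 and 469 as reported. The number of arrays limits the precision.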
